A study of Caenorhabditis elegans with 2 samples.

Results

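The 10 genes described here are the aquaporin genes aqp-1 to aqp-8, aqp-10 and aqp-11 of Caenorhabditis elegans, taken by name from the 19973 protein-coding genes of its nuclear chromosomes. The annotation names 12 aquaporin genes, of which aqp-9 and aqp-12 were not analysed here. For each gene, every region of CEH-6 chromatin immunoprecipitation signal was taken whose summit lay between 5000 bp before and 5000 bp after the gene. This gave 30 regions of the 30000 listed for the pooled reads. Replicate 1 gave 34 of its 30000 and replicate 2 gave 31 of its 30000. The authors label these lists as peaks and background, so a listed region is not by itself a called peak of CEH-6. Regions were taken by position and not by signal, but the genes were chosen with earlier results of these data known.

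The study mapped CEH-6 by ChIP-seq of its eGFP fusion with an anti-GFP antibody in late embryos, in 1 group with biological replicates 1 and 2. Both samples were strain OP748, which carries the transgene wgIs748 (ceh-6 fused at its C-terminal end to TY1, EGFP and 3xFLAG, with unc-119(+) as marker) in an unc-119(ed3), VC2010 background. The embryos were of mixed sex, were synchronized by egg bleaching and are labelled 3.3 hours old, with no statement of when the count begins. Each list of regions was called against 1 control, and the samples hold no untagged strain or second stage, so no test between groups was possible. The chromatin came from whole embryos, in which many cells do not make CEH-6: at any region, binding in few cells and weak binding in many cannot be told apart. The labels call the replicates biological, but nothing further says whether they came from separate cultures.

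Aquaporins are membrane channels that let water cross cell membranes, and some of them, the aquaglyceroporins, also pass glycerol. In C. elegans several are made in the excretory canal cell, a tubular cell that keeps the water balance of the worm, and others in the intestine or in muscle. CEH-6 is a POU homeodomain transcription factor found in that canal cell and in some neurons and rectal cells. POU proteins are known to bind the octamer ATGCAAAT, which reads ATTTGCAT on the other strand. Earlier work described an octamer in the aqp-8 promoter as the element through which CEH-6 acts in the canal cell.

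The sequences on which the aquaporin results turn are printed first. All are from the RefSeq copy of assembly WBcel235, which ce11 also names, and each is written 5′ to 3′ on the strand of its gene. The first is the sequence upstream of aqp-8, chrX:4705196-4705495 on the minus strand, with the exact octamer in capitals. The second is a stretch under the strongest region upstream of aqp-4, chrV:9733035-9733073 on the plus strand, with its 2 exact octamers in capitals. The third lies around the summit of the strongest region at any aquaporin gene, downstream of aqp-2, chrII:9258160-9258360 on the minus strand, where capitals mark the 3 words that differ from the octamer at 1 base. The fourth lies around the summit of the strongest region upstream of aqp-2, chrII:9262993-9263193 on the minus strand, which holds no octamer even with 1 mismatch, so that capitals mark the 21 bases around the summit.
aqp-8 upstream: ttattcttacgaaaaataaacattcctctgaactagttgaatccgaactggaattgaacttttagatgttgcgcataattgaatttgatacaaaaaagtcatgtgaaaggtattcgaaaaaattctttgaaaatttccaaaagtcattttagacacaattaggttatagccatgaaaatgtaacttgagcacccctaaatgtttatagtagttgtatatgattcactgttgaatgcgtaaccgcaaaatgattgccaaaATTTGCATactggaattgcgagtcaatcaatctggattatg
aqp-4 far upstream: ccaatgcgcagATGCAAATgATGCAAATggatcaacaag
aqp-2 downstream: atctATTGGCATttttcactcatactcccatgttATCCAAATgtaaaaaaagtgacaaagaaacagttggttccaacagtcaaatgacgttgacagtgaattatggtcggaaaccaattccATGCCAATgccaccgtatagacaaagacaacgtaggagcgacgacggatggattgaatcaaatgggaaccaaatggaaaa
aqp-2 upstream: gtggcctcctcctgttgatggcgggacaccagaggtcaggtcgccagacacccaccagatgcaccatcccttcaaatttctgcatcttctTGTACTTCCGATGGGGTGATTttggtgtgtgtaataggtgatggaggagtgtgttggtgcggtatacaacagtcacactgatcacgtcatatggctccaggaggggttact

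The aquaporin genes differed widely in how many regions they had and how strong these were. aqp-8 had 11 pooled regions and aqp-2 had 10, while aqp-7 and aqp-11 had 3 each, aqp-4 had 2 and aqp-1 had 1. No pooled region lay in the window of aqp-3, aqp-5, aqp-6 or aqp-10. Members had 3 ± 4.14 regions and a median of 1.5, against 3.90 ± 3.18 and a median of 3 for all genes (mean ± SD over genes). Having 10 or more regions, as aqp-2 and aqp-8 did, was seen in 5.04% of all genes. Having none, as 4 of the 10 aquaporin genes did, was seen in 11.1% of all genes. The map of summits shows how the regions gathered at aqp-2 and aqp-8, and the plot of regions per gene sets the members on the distribution of all genes.

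**Figure D1:**
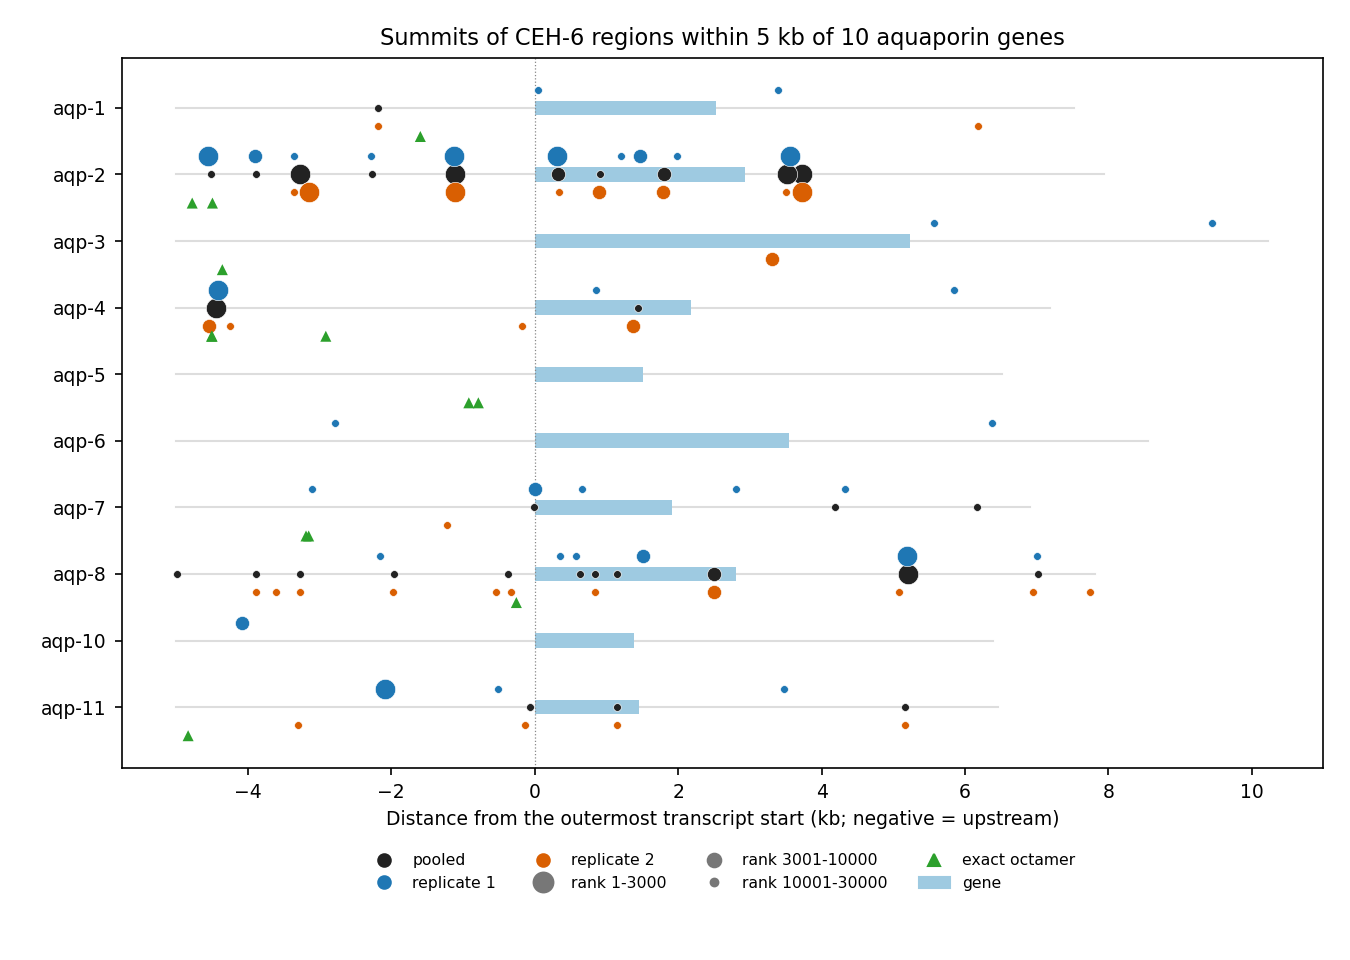
Summits of CEH-6 regions around each aquaporin gene, drawn on the strand of the gene by distance in kb from its outermost transcript start. Black dots are pooled regions, blue dots replicate 1 and orange dots replicate 2; larger dots rank higher in their own list, green triangles are exact octamers upstream and blue bars are the genes. aqp-2 and aqp-8 hold 21 of the 30 pooled summits, and aqp-5 has no summit in any list.

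**Figure D2:**
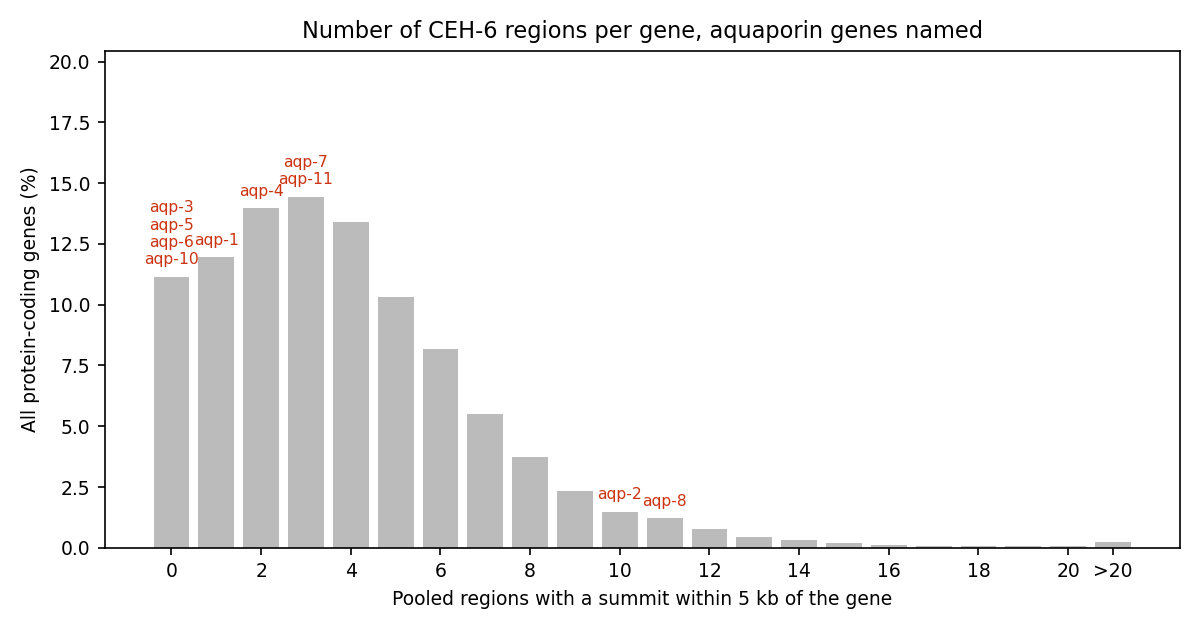
Share of all 19973 protein-coding genes, in percent, by the number of pooled regions with a summit within 5 kb. The aquaporin genes are named in red above the bar they belong to: 4 stand at 0 regions, aqp-2 at 10 and aqp-8 at 11.

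Each list was ranked by the signal that the authors' caller gave, with rank 1 the strongest. In the pooled list this signal ran from 28.9 to 1484, with a median of 40.4. The study's stricter set, chosen by the irreproducible discovery rate (IDR) method, which weighs the ranks in both replicates, held 741 regions. They were the 741 strongest pooled regions, with signals from 105.7 upwards. 1 of the 10 aquaporin genes, aqp-2, had such a region in its window, as did 8.76% of all genes. Among as many top regions of replicate 1 the gene was again aqp-2 alone (8.68% of all genes), and likewise in replicate 2 (8.82% of all genes). A region among the 3000 strongest of the pooled list lay near 3 members, aqp-2, aqp-4 and aqp-8, as it did for 27.7% of all genes. By the same limit replicate 1 had 4 members, aqp-2, aqp-4, aqp-8 and aqp-11, against 28.1% of all genes, and replicate 2 had 1, aqp-2, against 28.3%. In the pooled list the count of members was thus near the share of all genes, and the replicates differed from each other at this limit.

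The median best rank, with a gene that has no region counted as 30001, was 23000 for the aquaporin genes and 7033 for all genes in the pooled list. In replicate 2 it was 16536.5 for the aquaporin genes and 6775 for all genes. In replicate 1 alone it was 5965 for the aquaporin genes and 6700 for all genes. The lower standing of the members thus appeared in the pooled list and in replicate 2, and not in replicate 1. In replicate 1, 9 of the 10 genes had at least 1 region, near the 91.7% of all genes.

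**Figure D3:**
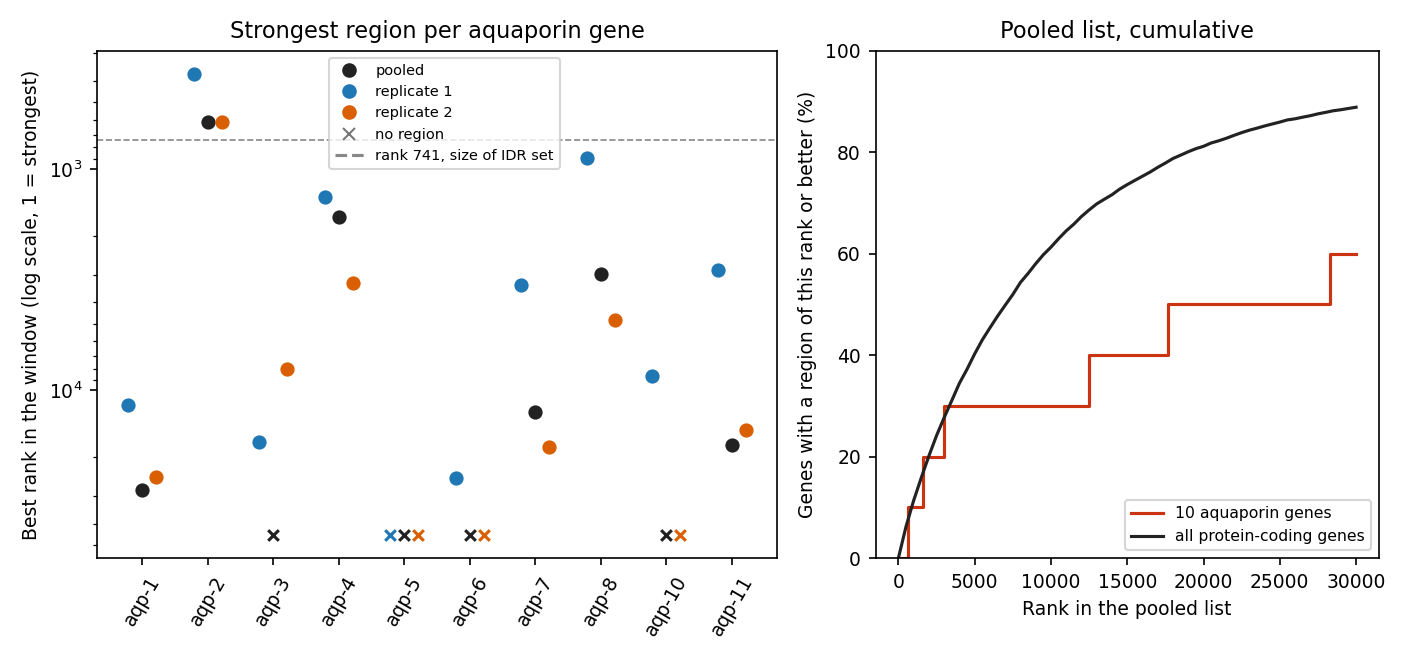
Left, rank of the strongest region in the window of each aquaporin gene in the pooled list (black), replicate 1 (blue) and replicate 2 (orange), on an inverted log axis; a cross marks a gene with no region and the dashed line is rank 741. Right, percentage of the 10 aquaporin genes (red) and of all protein-coding genes (black) that had a pooled region of a given rank or better: the red line follows the black one up to about rank 3000, where it stands at 30%, and ends at 60%.

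aqp-8 encodes a channel made in the excretory canal, and it is the gene with a known octamer. The gene lies at chrX:4702167-4704977 on the minus strand and has 5 annotated transcripts. Its exact octamer, chrX:4705229-4705236, starts 252 bp upstream of the outermost transcript start. A pooled region, chrX:4705140-4705549, covered it, with its summit 113 bp from the octamer and 368 bp upstream of the gene. That region had a signal of 42.8 and rank 12972, just above the median signal of the list, and was not in the IDR set. In replicate 2 the octamer lay in a region of rank 18974 with a signal of 23.6, whose summit was 78 bp away. In replicate 1 no region covered it, and the nearest summit lay 612 bp from it, inside the gene. The octamer of the aqp-8 promoter was therefore covered in the pooled list and in 1 replicate, at a rank in the weaker part of that replicate's list.

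The other regions of aqp-8 were spread over the whole window. The strongest, chrX:4699570-4699979, had a signal of 67.8 and rank 2974 and lay 2392 bp past the end of the gene, 314 bp from a transcript start of hyl-2, which encodes a ceramide synthase. It ranked 891 with a signal of 44.3 in replicate 1 and 14256 with a signal of 26.8 in replicate 2, so the replicates placed it very differently. Another, chrX:4702275-4702684, had a signal of 50.7 and rank 7954, lay in a coding exon, and was found in replicate 2 at rank 4795 but not in replicate 1. The region 1967 bp upstream, chrX:4706739-4707148, had rank 13569 and was covered in both replicates, at ranks 18934 and 10226, but its nearest transcript start was that of dhhc-10, at 232 bp. The remaining 7 ranked between 16509 and 29866, and 1 of these 7 was covered in both replicates. In all, 3 of the 11 pooled regions of aqp-8 were covered in both replicates.

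aqp-2 encodes a water channel that is also made in the excretory canal cell, and it had the strongest regions of the family. It lies at chrII:9259048-9261981 on the minus strand. Its strongest region, chrII:9258055-9258464, had a signal of 115.3 and rank 612, and its summit lay 788 bp past the end of the gene. Replicate 1 had rank 372 with a signal of 62.3 there, and replicate 2 had rank 613 with a signal of 71.5. Both replicates thus had a region covering this summit among their 741 strongest. Only 7.43% of all genes had a pooled region of such a rank or better in their window. The neighbouring region chrII:9258254-9258663, of rank 1578 and signal 81.2, overlaps this strongest region. It falls in the same region of replicate 1, but in a separate region of rank 12186 in replicate 2. The replicate 1 region had its summit 633 bp past the gene, nearer to the neighbouring pooled summit at 589 bp than to the strongest. The replicate 2 region of rank 613 had its summit at 799 bp. The sequence around the strongest summit holds words with 1 mismatch to the octamer and no exact octamer.

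Upstream of aqp-2 the strongest region was chrII:9262888-9263297, with its summit 1112 bp before the gene. Its signal was 86.7, at rank 1286, and both replicates had it in place, at rank 1975 with a signal of 35.7 and at rank 1225 with a signal of 56.2. Next came chrII:9265044-9265453, with a signal of 73.5 and rank 2215. Its summit lay 3268 bp upstream, nearer to the start of C01G6.2, at 1806 bp. Replicate 1 covered this summit with a region of rank 13025, and replicate 2 with regions of rank 970 and 21423. The replicate 1 region had its summit 3356 bp upstream, near that of the rank 21423 region, at 3354 bp. The rank 970 region had its summit at 3151 bp, which lay in no region of replicate 1. A region in an intron, chrII:9261445-9261854, with a signal of 67.3 and rank 3064, was strong in replicate 1 (rank 2521) and weak in replicate 2 (rank 21955). The last region towards C01G6.2, chrII:9266283-9266692, had a signal of 44.98 and rank 11344 and is the one near an octamer. Its summit lay 14 bp from an exact octamer 4490 bp upstream of aqp-2 and 581 bp from the start of C01G6.2. Replicate 1 had a region of rank 2061 there, with its summit 69 bp from the octamer, and replicate 2 had none. A second octamer, 4772 bp upstream, lay 268 bp from the same summit. Both are shown with their flanks, at chrII:9266460-9266489 and chrII:9266742-9266771, minus strand, octamer in capitals.
aqp-2 nearer octamer: gaacaatacccATTTGCATatattcatttc
aqp-2 farther octamer: aaattgttaagATGCAAATttttcagaaat

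aqp-4 encodes a water channel of the intestine and lies at chrV:9737556-9739740 on the plus strand. Its stronger region, chrV:9732913-9733322, had a signal of 80.3 and rank 1642. Replicate 1 gave it rank 1338 with a signal of 39.5, among its 3000 strongest. Replicate 2 covered the summit with a region of rank 3259 and signal 42.6, just outside its 3000 strongest. Another region of replicate 2, of rank 21135 with a signal of 22.5, covered the summit as well. The summit lay 4438 bp upstream of aqp-4, in a coding exon of drap-1, and 985 bp from the start of cal-7, a calmodulin-like gene. Since 2 other genes lie nearer, its assignment to aqp-4 rests on the window alone. The summit was 69 bp and 60 bp from the pair of octamers printed above, which are separated by a single base. In replicate 1 these distances were 86 and 77 bp, and in replicate 2 they were 34 and 43 bp. No other octamer upstream of an aquaporin gene lay within 100 bp of a summit in all 3 lists. The other region of aqp-4, chrV:9738788-9739197 in a coding exon, had a signal of 46.9 and rank 10045 and was found in replicate 2 only, at rank 6818. A further octamer, 2909 bp upstream in an intron of cal-7, was 1525 bp from the nearest pooled summit.

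Channels known to pass glycerol as well as water include those of aqp-1, aqp-3 and aqp-7, none of which had a pooled region among the 3000 strongest. aqp-7, known from muscle, lies at chrX:3025063-3026974 on the plus strand and had its strongest region, chrX:3024845-3025254, at the start itself, with the summit 13 bp upstream. This region had a signal of 43.5 and rank 12476. In replicate 1 it ranked 3326 with a signal of 31.2, and in replicate 2 no region covered it. Neither downstream region of aqp-7, of ranks 19483 and 29694, was in replicate 2 either. The gene has a pair of octamers 3185 and 3148 bp upstream. A region of rank 24125, found only in replicate 1, had its summit 89 and 52 bp from them, and the nearest pooled summit was over 3000 bp away. aqp-1, which acts in the intestine, lies at chrII:7235828-7238349 on the minus strand and had a single pooled region, chrII:7240323-7240732, 2179 bp upstream in an exon of the non-coding gene linc-125. Its signal was 29.9, at rank 28296, near the bottom of the list, and it was found in replicate 2 at rank 26359 but not in replicate 1. Replicate 1 had 2 regions of its own at aqp-1. The stronger, chrII:7238108-7238503, lay in an intron 43 bp from the gene start with a signal of 21.5 and rank 11612, and the other, of rank 12188, lay 873 bp past the gene. The octamer of aqp-1 lies in linc-125 as well, 1591 bp upstream and 585 bp from the pooled summit. aqp-3, of the excretory canal cell, lies at chrIV:10961229-10966459 on the minus strand and had no pooled region within 10177 bp of either end of the gene. Replicate 2 had 1 region in an intron, chrIV:10962946-10963361, of rank 8034 and signal 32.6, and replicate 1 had 2 regions of which the stronger ranked 17092. These were in no other list. The flanks of the octamers of aqp-1 (chrII:7239929-7239958, minus strand), aqp-3 (chrIV:10970800-10970829, minus strand) and aqp-7 (chrX:3021860-3021889 and chrX:3021897-3021926, plus strand) are printed with the octamer in capitals, to show sites that no strong region covered.
aqp-1: ccccgattcagATGCAAATtcagaagtatc
aqp-3: tctctcttaaaATGCAAATtattcagcaaa
aqp-7 farther octamer: gcatatgcagtATTTGCATcatccgttttt
aqp-7 nearer octamer: actataggatgATGCAAATtcacggtgcta

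aqp-5 and aqp-6 were, with aqp-3 and aqp-10, the members without a pooled region. aqp-5, at chrV:10491743-10493256 on the plus strand, was the only member with no region in any list, as were 3.66% of all genes, and its nearest pooled summit lay 11485 bp away. It nevertheless has exact octamers 915 and 782 bp upstream (chrV:10490810-10490839 and chrV:10490943-10490972, plus strand), printed with the octamer in capitals because they are, with that of aqp-8, the only octamers within 1000 bp of an aquaporin gene.
aqp-5 farther octamer: tgttttctctaATTTGCATtgtaaacaata
aqp-5 nearer octamer: taaaaaattatATTTGCATtgaaactaggc

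aqp-6, at chrV:10648446-10651997 on the plus strand, has no octamer within 5000 bp upstream. It had 2 regions in replicate 1, both in coding exons of other genes, of which the stronger ranked 24970. The nearest pooled summit was 8815 bp from the gene.

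aqp-10 and aqp-11 belong to the divergent aquaporins, whose sequence departs from that of the classical channels. aqp-11, at chrIII:13673280-13674739 on the plus strand, had 3 pooled regions of which the strongest, chrIII:13673015-13673424, lay 60 bp upstream with a signal of 37.7 and rank 17704. All 3 were found in replicate 2, at ranks 15078, 22441 and 27700, and none in replicate 1. Replicate 1 instead had a region at chrIII:13670998-13671393, 2084 bp upstream, with a signal of 32.4 and rank 2866, which was in neither other list. Its octamer, 4829 bp upstream and nearer to flp-15, lay 543 bp from the nearest pooled summit. aqp-10, at chrII:9768458-9769847 on the minus strand, had a single region, in replicate 1 only, of rank 8604. That region lay 4085 bp upstream and 10 bp from a start of ZK1321.4. Just beyond its window, 5020 bp upstream, stood a pooled region of rank 113 and signal 313.7, with ranks of 111 and 122 in the replicates. Its summit was within 100 bp of the snoRNA gene T10B9.11 and 925 bp from the nearest protein-coding start, of ZK1321.4.

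The limit of 5000 bp left out regions stronger than any inside it. Just inside the limit were regions at 4981 bp (aqp-8, rank 22347, signal 33.95), 4507 bp (aqp-2, rank 11344, signal 44.98) and 4438 bp (aqp-4, rank 1642, signal 80.3). Just outside were that of aqp-10 and those at 5376 bp (rank 14377, signal 41.1) and 5455 bp (rank 7660, signal 51.3) from aqp-11. Beyond 5000 and up to 10000 bp, 4 regions of the IDR set lay near 3 members, and they are named here after their values were seen. That of aqp-10 is 1 of them. A pair at chrV:9730985-9731394 (rank 272, signal 183.5) and chrV:9731187-9731596 (rank 626, signal 114.2) stood 180 and 22 bp from the start of drap-1, over 6000 bp upstream of aqp-4. The last, chrX:3035989-3036306 (rank 77, signal 398), lay 9167 bp downstream of aqp-7, within 100 bp of 2 tRNA genes. Each of these 4 had a transcript start or a small RNA gene of another locus nearer than the aquaporin gene. No region inside the windows was within 100 bp of a small RNA gene.

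By location, 14 of the 30 pooled summits lay upstream of the aquaporin gene, 9 within it and 7 downstream. Of the 9, 4 were in coding exons and 5 in introns. Over all 77976 pairs of a gene and a region in its window, 37.8% were upstream, 26.3% within the gene and 36.0% downstream. Within 1000 bp upstream there were 3, those of aqp-7, aqp-8 and aqp-11, against 8.62% of all pairs. The nearest transcript start was that of the aquaporin gene itself for 16 of the 30, against 37.04% of all pairs. Of the 30 summits, 7 lay inside another gene, a share that was not counted over all pairs. The space upstream differed too: the median distance to the next protein-coding gene, counted up to 5000 bp, was 2218.5 bp for the aquaporin genes and 939 bp for all genes. Of the members, aqp-1, aqp-2, aqp-7 and aqp-11 had no protein-coding gene within the full 5000 bp, against 2724 of all 19973 genes.

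Both replicates covered the pooled regions of high rank at the aquaporin genes, and few of those of low rank. The pooled list was itself called on the reads of both replicates. Of the 30 pooled summits, 10 lay in a region of both replicates, 7 in one of replicate 1 only, 11 in one of replicate 2 only and 2 in neither; the share in both was 33.3%, against 42.5% of all pooled regions. All 6 regions among the 3000 strongest were covered in both replicates, against 98.1% of all regions at ranks 1 to 741 and 94.1% at ranks 742 to 3000. From rank 3001 to 10000 it was 2 of 3, against 74.5%. From rank 10001 to 20000 it was 2 of 12, against 36.85%. Below rank 20000 it was 0 of 9, against 10.05%. Covered does not mean of like rank: the plot of replicate ranks shows that 3 of the 6 strong regions had a rank beyond 10000 in 1 replicate. Seen from the replicates, 15 of the 34 regions of replicate 1 had their summit in a pooled region and 9 in a region of replicate 2. Of the 34, 19 were in no other list. In replicate 2, 24 of the 31 were in a pooled region, 11 in a region of replicate 1 and 7 in no other list. These shares were not counted over all regions of each replicate list, so they cannot be set against a background. The 2 overlapping regions downstream of aqp-2 count as 2 of the 10, although they share 1 region of replicate 1. Some regions strong in 1 replicate were not shared with the other. Upstream of aqp-2, the region of rank 970 in replicate 2 and that of rank 2061 in replicate 1 had summits in no region of the other replicate. The same held for the region of rank 2866 in replicate 1, upstream of aqp-11.

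**Figure D4:**
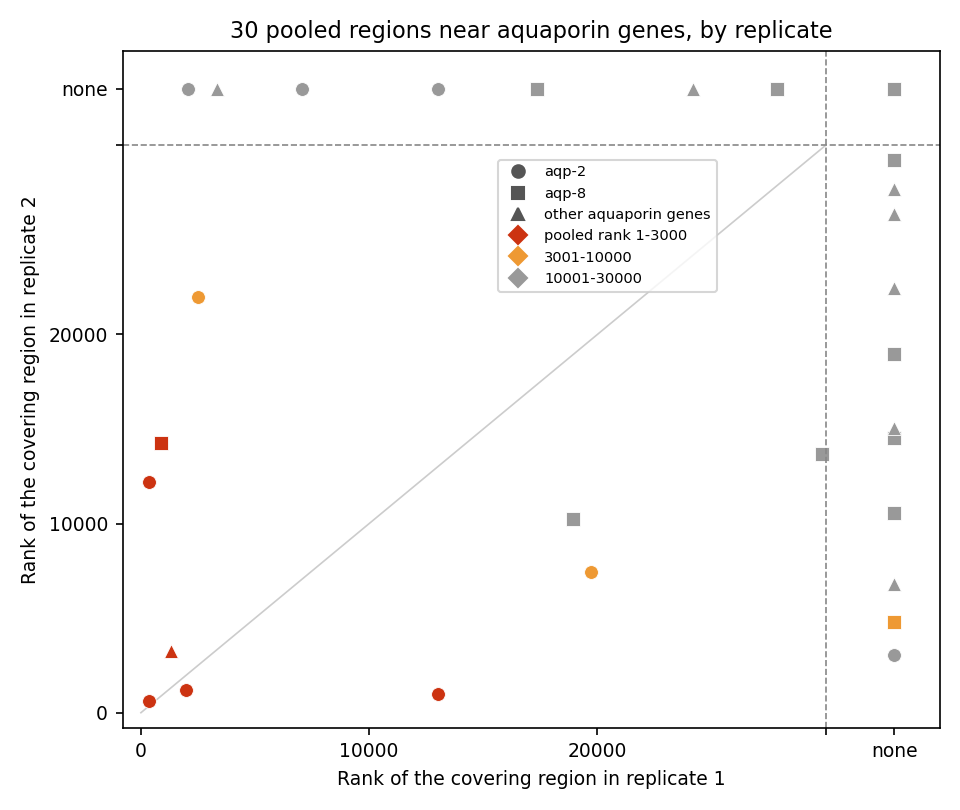
Rank in replicate 1 (x axis) and replicate 2 (y axis) of the region that covers each of the 30 pooled summits near aquaporin genes, with regions absent from a replicate placed at "none". Circles are aqp-2, squares aqp-8 and triangles the other members, coloured by pooled rank; all 6 regions of pooled rank 1 to 3000 have a rank in both replicates, and 18 of the other 24 are missing from 1 replicate.

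Exact octamers were frequent upstream of the aquaporin genes when the whole 5000 bp were read on both strands. There were 13 of them at 8 of the 10 genes, all but aqp-6 and aqp-10, against 36.5% of all genes with at least 1. Within 2000 bp they were at aqp-1, aqp-5 and aqp-8, against 17.0% of all genes. Within 1000 bp they were at 2 members, aqp-5 and aqp-8, against 8.9% of all genes. When the sequence was ended at the next protein-coding gene, 6 members had an octamer, against 13.8% of all genes. Of the 13 octamers, 3 had a pooled summit within 100 bp, against 6.56% of the 5819 octamers upstream of all genes. These were the nearer octamer of aqp-2 and the pair of aqp-4, which shares 1 region. The nearest protein-coding starts to them were those of C01G6.2 and cal-7. The median distance to a pooled summit was 585 bp for the octamers of aquaporin genes and 1290 bp for those of all genes. In replicate 1 it was 612 bp for the octamers of aquaporin genes and 1266 bp for all, but in replicate 2 it was 1338 bp for the octamers of aquaporin genes and 1255 bp for all, so the order was not the same in both replicates. In replicate 1 the number within 100 bp was 5, through the pair of aqp-7, against 5.76% of the octamers upstream of all genes. In replicate 2 it was 3, with that of aqp-8 in place of that of aqp-2, against 6.19%. Both octamers of aqp-5, by contrast, were over 10000 bp from a summit of the pooled list. The octamer of aqp-11, chrIII:13668433-13668462 on the plus strand with its flanks, and the lone one of aqp-4, chrV:9734629-9734658 on the plus strand, complete the set, with the octamer in capitals.
aqp-11: attttcaagtaATGCAAATattttctatat
aqp-4 lone octamer: ttgaaaactcaATTTGCATctctataggtt

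Read the other way, from the regions, 2 of the 30 pooled regions had an exact octamer within 100 bp of the summit, against 1.84% of all nuclear regions. An octamer with at most 1 mismatch was within 100 bp in 17 of the 30, against 27.6% of all nuclear regions. These 17 were 6 of the 10 regions of aqp-2, 6 of the 11 of aqp-8, both of aqp-4, 2 of the 3 of aqp-11 and 1 of the 3 of aqp-7. Among the 3000 strongest regions the word was in 3 of the 6 at aquaporin genes, against 24.4% of all. Base composition moved with this: the GC content of the same windows was 39.98% ± 7.05 at the aquaporin regions and 42.2% ± 7.11 at all nuclear regions (SD over regions), and the part of AT content in the count of matches was not tested. The exact words GAGAGAGA and CACACACA were at 0 of the 30 each, against 3.67% and 3.23% of all nuclear regions, which for 30 regions is about 1. The same repeats in another register were not counted, and the aqp-2 upstream sequence printed above holds gtgtgtgt. Both words were searched on both strands, and overlapping windows, as at the downstream pair of aqp-2, count more than once.

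Other genes were read in the same way, from lists of osmotic stress and glycerol genes and of genes of the excretory canal tube. Among 14 osmotic stress and glycerol genes, 1 had a region of the IDR set in its window, against 8.76% of all genes. Of the 14, 6 had 1 of the 3000 strongest, through 5 separate regions, against 27.7% of all genes, and the median best rank was 3946, against 7033 for all genes. The gene with the IDR region was gpdh-2, a glycerol 3-phosphate dehydrogenase of glycerol synthesis, with a region of rank 127 and signal 285.6 that lay 2531 bp upstream, nearest to a start of twk-48, and ranked 155 and 121 in the replicates. Of the 19 canal genes 18 matched the annotation, with exc-2 unmatched. Of these 18, 3 had a region of the IDR set and 8 had 1 of the 3000 strongest, against the same shares of all genes, and the median best rank was 4528. The 3 were ifb-1, which encodes an intermediate filament (rank 227, signal 203.3, downstream and nearest to dmd-5), pros-1, a homeodomain factor (rank 502, signal 125.6, in an intron), and ceh-6 itself (rank 273, signal 182.6, in an intron). The transgene carries ceh-6 sequence, so its region cannot be told apart from extra copies. Every matched gene of both lists had a pooled region, 4 of the 10 aquaporin genes had none, and 11.1% of all genes had none. The windows differed in length, with a median of 12353.5 bp for the aquaporin genes, 14439 bp for the osmotic stress and glycerol genes, 16607 bp for the canal genes and 12027 bp for all genes, and the part of window length in these counts was not tested. The lists were chosen with earlier results of these data known, and the counts are a description.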

How the data were processed

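The authors deposited narrowPeak lists of regions on assembly ce11: 1 called on each replicate, 1 on the pooled reads and the IDR set, all relative to 1 control, according to the notes the authors deposited. The value of a region is the signal given by the authors' caller, whose scale is not stated, so it was used only to rank regions within a list. All lists but the IDR set are labelled as peaks and background. The deposited summit offset, added to the region start, gave the summit. For the peak caller, aligner and read filters, the sources used here name none. Without read counts in the lists, sequencing depth is unknown, and no interval can be given.

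Gene models were those of Ensembl release 115 for WBcel235, and sequence came from the RefSeq copy of that assembly, with Python 3.11.15 and NumPy 2.4.6. Gene ends are those of the outermost transcripts. A pooled region was shared with a replicate when its summit lay in a region of that replicate. Every member was named, and given in full were its strongest pooled region, each pooled region among the 3000 strongest and each within 100 bp of an exact octamer. With 1 group no test was made: counts stand beside the same counts over all genes or regions. The members and lists were chosen with earlier results of these data known. The counting was tested on simulated data. Alternatives were other windows, thresholds, sharing rules and upstream lengths, and each replicate alone.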

Additional observations from a re-analysis of the deposited data

How the results depend on the processing

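Of 30 alternative settings, 17 were labelled as leaving a result near its value and 13 as moving it. The first label was loose. It took in a median best rank of 29148.5 when only regions nearest to the gene's own start counted, against 23000. Replicate 2 alone, with 16536.5, had that label too. So did the 6 genes with an octamer, against 8, when the upstream sequence ended at the next gene. With 2000 bp to each side the regions near aquaporin genes numbered 16 and those upstream 5. With 10000 bp the regions numbered 56, the genes with a region of the IDR set 4 and the median best rank 3872. Values over all genes are not given here for these windows, so these results cannot be set against those over all genes at 5000 bp. With only the stronger part of the IDR set as threshold, 0 aquaporin genes had a region, and the share of all genes is not given here. Using 1 replicate alone gave 31 to 34 regions, 12 to 16 upstream regions, 1 gene with a top region, a median best rank of 5965 to 16536.5 and 3 to 5 octamers near a summit; the 5965 and the 5 came from replicate 1. Regions shared by both replicates numbered 5 when summits had to lie within 100 bp and 6 in the stronger part of each list. Genes with an octamer numbered 2 with 1000 bp upstream and 3 with 2000 bp, and 5 octamers had a summit within 500 bp. The share of the octamers of all genes within 500 bp is not given here. The cause of these shifts was not tested, and a narrower or wider window also holds fewer or more bases. No paired analysis was possible because the samples form 1 group. The unknown depth means that a gene without a region may fall below the 30000 listed.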
